A study of Mus musculus with 6 samples.

Results

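Ribosome-associated RNA of 8 acetylcholine receptor genes was examined in dopamine D2 receptor neurons of the mouse medial prefrontal cortex (mPFC). The genes were 4 muscarinic receptors (Chrm1, Chrm2, Chrm3 and Chrm4) and 4 nicotinic subunits (Chrna4, Chrna5, Chrna7 and Chrnb2). They were found by gene name in the deposited transcript table, where they account for 20 of 115220 transcripts and 8 of 47729 genes. All 6 libraries came from D2Cre/LSL-Flag-Cas9/RiboTag mice, C57BL/6 adult males, in which a D2Cre transgene switches on Cas9 and hemagglutinin-tagged Rpl22 in the same cells. The Ctrl group (3 libraries) received an AAV with GFP alone in the mPFC, and the Gsk3sKO in mPFC D2 group (3 libraries, Gsk3sKO below) received an AAV with a Gsk3b sgRNA and GFP. Tagged ribosomes were pulled down from dissected mPFC 3 weeks later, so the Ctrl neurons also carried Cas9 and the ribosome tag. Cre comes from a D2 BAC transgene, so D2 cells of the mPFC that the virus did not reach still contribute tagged ribosomes. The labels do not say whether a library stands for 1 mouse or a pool, so p-values measure the spread between libraries, which may be technical.

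Acetylcholine reaches the prefrontal cortex mainly from cholinergic neurons of the basal forebrain and supports attention and working memory. It acts on muscarinic receptors, which are G protein-coupled, and on nicotinic receptors, which are ion channels built from several subunits. M1 and M3 (Chrm1, Chrm3) couple to Gq, which activates phospholipase C and closes KCNQ potassium channels, whereas M2 and M4 (Chrm2, Chrm4) couple to Gi, which lowers cyclic AMP. Subunits α4 and β2 (Chrna4, Chrnb2) form the main high-affinity nicotinic receptor of the brain, α5 (Chrna5) joins it as an accessory subunit, and α7 (Chrna7) forms channels with high calcium permeability.

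The sequences below show the element that marks each receptor class in the coding sequence of its most abundant protein-coding transcript. They were read 5′ to 3′ on the coding strand from the GENCODE M21 transcripts (GRCm38). For the muscarinic receptors the capitals mark the codons for Asp-Arg-Tyr, the motif through which receptors of this class engage G proteins.
Chrm1: atcagctttGACCGTTACttctcagtg
Chrm3: atcagctttGACAGGTACttttctatt
Chrm2: atcagctttGATAGATACttctgtgtc
Chrm4: atcagctttGACCGCTATttctgcgtc
The 9 bases before the motif were the same in the 4 genes. Over the 27 bases shown, pairs of these genes had 19 to 22 identical positions. These stretches lie at chr19:8678287-8678313 (plus strand, exon 2 of Chrm1), chr13:9878492-9878518 (minus strand, the single exon of the shorter Chrm3 transcript), chr6:36523558-36523584 (plus strand, exon 3 of Chrm2) and chr2:91927621-91927647 (plus strand, the single exon of Chrm4). For the nicotinic subunits the capitals mark the codons of the paired cysteines that define an α subunit.
Chrna4: aggaagtatgaaTGCTGTgccgagatctat
Chrna5: cggacggacagcTGCTGCtggtacccctgc
Chrna7: aagttctatgaaTGCTGCaaagagccatac
They lie at chr2:181029266-181029295 (minus strand, exon 5 of Chrna4), chr9:55004605-55004634 (plus strand, exon 5 of Chrna5) and chr7:63106146-63106175 (minus strand, exon 7 of Chrna7). Each α subunit had 1 pair of adjacent cysteine codons in its whole coding sequence, and Chrnb2, the β subunit, had 0. The coding sequences of the muscarinic genes were identical at 65.9% to 70.5% of aligned bases, and those of the nicotinic genes at 58.6% to 68.8%. The longest run of bases shared by the coding sequences of any pair of the 8 genes was 29 (Chrm1 and Chrm4). The coding sequences are thus related but hold no long identical stretch, and untranslated parts were not compared.

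The files used here hold no read counts. The spacing of low values put the depth at about 23.6 to 45.4 M reads per library, an approximate figure because 23.4% to 43.7% of the low values came within 0.02 reads of a whole number. On log2(FPKM + 1), libraries correlated with each other at 0.91 to 0.96, with the lowest values in pairs that held Ctrl replicate 1 or Gsk3sKO replicate 3. The lowest of all, 0.908, was between these libraries. FPKM is the number of fragments relative to the length of a transcript and to all mapped fragments of its library, and the FPKM of a gene was taken as the sum over its transcripts. Values are given in the order of replicates 1 to 3. Gsk3b, the targeted gene, was at 35.6, 53.8 and 56.4 FPKM in Ctrl replicates 1 to 3 and at 36.9, 37.0 and 33.6 FPKM in Gsk3sKO replicates 1 to 3 (log2 fold change −0.40, exact permutation p = 0.3), and Ctrl replicate 1 lay inside the Gsk3sKO range. Its leading transcript was listed with 33.5, 34.7 and 36.2 FPKM across Ctrl and 24.8, 21.6 and 21.15 FPKM across Gsk3sKO, without overlap (exact permutation p = 0.1, the smallest possible). Drd2, the gene whose promoter marks these cells, was at 1.58, 6.02 and 14.1 FPKM across Ctrl and 8.32, 5.96 and 7.28 FPKM across Gsk3sKO, so it was detected in every library and varied most within Ctrl.

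No single receptor gene passed the test between Gsk3sKO and Ctrl. Of the 8 genes, 7 had a mean of at least 1 FPKM over the 6 libraries and entered the test, and 0 of these 7 had an unadjusted limma p under 0.05. In the same test 844 of 12874 gene totals did, which is 6.56%. The groups did not overlap in 12% of all gene totals tested, and they overlapped in each of the 8 receptor genes. Shares of this size leave less than 1 call to be found among 7 genes, so the counts of 0 do not set the receptor genes apart. Without Ctrl replicate 1 the groups did not overlap in 2 of the 7, Chrm1 and Chrna4, beside 2945 of 12874 gene totals. Among the tested receptor genes 5 had a lower and 2 a higher mean log2 value in Gsk3sKO, and their median log2 fold change was −0.09, beside −0.06 over all gene totals. The adjusted p-values (limma, Benjamini-Hochberg over all gene totals) of the receptor genes ran from 0.866 to 0.972. In bulk RNA of this kind, fewer cells that express a receptor and less receptor RNA per cell cannot be told apart.

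The muscarinic Gq-coupled receptors were the most abundant of the 8 genes, and the α5 subunit the least. Averaged over the 6 libraries, Chrm1 stood at 32.9 FPKM, Chrm3 at 25.2, Chrna7 at 10.5, Chrm4 at 8.58, Chrna4 at 6.86, Chrnb2 at 4.28, Chrm2 at 4.17 and Chrna5 at 0.829. The highest mean was 39.7 times the lowest, and the median of all tested gene totals was 8.61 FPKM, close to Chrm4. Only 2 steps in this order had ranges that did not overlap over the 6 libraries, the step from Chrm3 to Chrna7 and the step from Chrm2 to Chrna5. Chrm1 was above Chrm3 in 5 of 6 libraries and Chrna4 above Chrnb2 in 6 of 6, although their ranges across libraries overlapped. In Gsk3sKO replicate 2, 3.85 of the 5.69 FPKM of Chrna4 came from a 519-base transcript, Chrna4-205. Chrna4-201, the main Chrna4 transcript over all libraries, was there at 1.83 FPKM, below the 4.75 FPKM of Chrnb2.

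**Figure D1:**
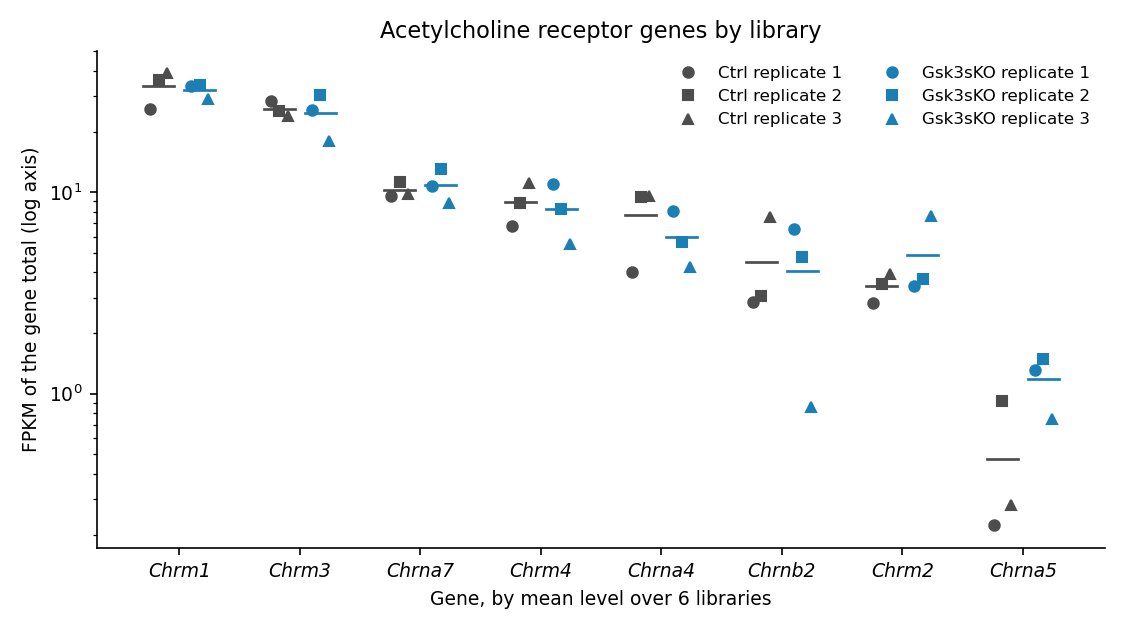
FPKM of each receptor gene total (log axis) in the 3 Ctrl libraries (gray) and the 3 Gsk3sKO libraries (blue), with lines at the group means and a marker shape for each replicate number. Genes run from the highest mean (Chrm1, 32.9 FPKM) to the lowest (Chrna5, 0.829 FPKM), and the points of both groups overlap for each gene.

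Chrm1, the main postsynaptic muscarinic receptor of cortical neurons, was at 26.0, 35.9 and 38.9 FPKM in the Ctrl libraries, against 33.5, 34.1 and 29.0 FPKM in Gsk3sKO. The Gsk3sKO values lay inside the Ctrl range. The means were 33.6 ± 6.76 FPKM and 32.2 ± 2.79 FPKM (SD, n = 3 each, exact permutation p = 0.8). The log2 fold change was −0.04 (SE 0.18, 95% interval −0.45 to 0.37), so the interval covers folds from 0.730 to 1.29. This was the narrowest interval of the 7 tested genes.

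Chrm3, the other Gq-coupled receptor, was at 28.3, 25.2 and 23.9 FPKM across Ctrl and 25.6, 30.2 and 18.1 FPKM across Gsk3sKO. Both the highest and the lowest value belonged to Gsk3sKO, in replicates 2 and 3. Gsk3sKO differed from Ctrl by a log2 fold change of −0.09 (SE 0.20, 95% interval −0.55 to 0.37, exact permutation p = 0.9).

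Chrm2, a Gi-coupled receptor known mainly as an autoreceptor on cholinergic terminals and also present on cortical interneurons, was at 2.83, 3.52 and 3.95 FPKM in Ctrl. In Gsk3sKO it was at 3.43, 3.70 and 7.58 FPKM. Replicate 3 stood apart from the other 5 libraries, and replicates 1 and 2 lay inside the Ctrl range. The log2 fold change of 0.35 (SE 0.31, 95% interval −0.35 to 1.06, exact permutation p = 0.5) was the highest of the 7 tested genes, and it was 0.05 without Gsk3sKO replicate 3.

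Chrm4, the Gi-coupled receptor best known from striatal neurons, was at 6.80, 8.80 and 11.1 FPKM in the Ctrl libraries, against 11.0, 8.22 and 5.51 FPKM in Gsk3sKO. The groups covered almost the same range. They differed by −0.12 on the log2 scale (SE 0.28, 95% interval −0.75 to 0.51, exact permutation p = 0.7). Chrm4 was the more abundant of the Gi-coupled pair in 5 libraries, at 2.22 to 3.21 times Chrm2, whereas in Gsk3sKO replicate 3 it was at 0.726 times Chrm2.

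Chrna4, the α subunit of the high-affinity receptor, was at 4.04, 9.48 and 9.60 FPKM across Ctrl and 8.09, 5.69 and 4.28 FPKM across Gsk3sKO. Ctrl replicate 1 was the lowest of all and Ctrl replicates 2 and 3 the highest. On the log2 scale Gsk3sKO was at −0.27 against Ctrl (SE 0.34, 95% interval −1.06 to 0.52, exact permutation p = 0.6).

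Chrnb2, its β partner, was at 2.85, 3.07 and 7.54 FPKM in the Ctrl libraries, against 6.60, 4.75 and 0.855 FPKM in Gsk3sKO. It was the least even of the receptor genes, with a residual SD of 0.887 on the log2 scale, at the 96.3rd percentile of all tested gene totals. The log2 fold change was −0.24 (SE 0.55), and its 95% interval from −1.49 to 1.01 leaves room for a change of more than 1 log2 unit downward or upward. Of the exon bases of Chrnb2, 16.3% overlap exons of Adar on the opposite strand. The kit was stranded, and whether strand was used to assign reads is not given in the sources used here.

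Chrna7, which forms the α7 channel, was the most even of the tested receptor genes. It was at 9.54, 11.3 and 9.83 FPKM across Ctrl and 10.8, 13.0 and 8.81 FPKM across Gsk3sKO, and the Ctrl values lay inside the Gsk3sKO range. The log2 fold change was 0.07 (SE 0.19, 95% interval −0.38 to 0.51, exact permutation p = 0.7), and the residual SD of 0.199 was at the 26.3rd percentile.

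Chrna5, the accessory subunit known from deep cortical layers, was under the filter and near the detection limit. It was at 0.223, 0.918 and 0.279 FPKM in the Ctrl libraries, against 1.31, 1.49 and 0.748 FPKM in Gsk3sKO. Only Ctrl replicate 2 reached into the Gsk3sKO range. These values correspond to about 19.0, 55.1 and 12.4 reads in Ctrl and 102, 80.9 and 42.1 reads in Gsk3sKO, from the approximate depth above. The difference of log2(FPKM + 1) was 0.58, and in a fit without the filter its 95% interval was −0.10 to 1.27 (limma p = 0.0812, adjusted p = 0.798, exact permutation p = 0.2 on the FPKM). The deposited table lists 1 of the 4 Chrna5 transcripts in GENCODE M21, so reads of the other 3 are not in this value where they do not fall on the listed one.

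**Figure D2:**
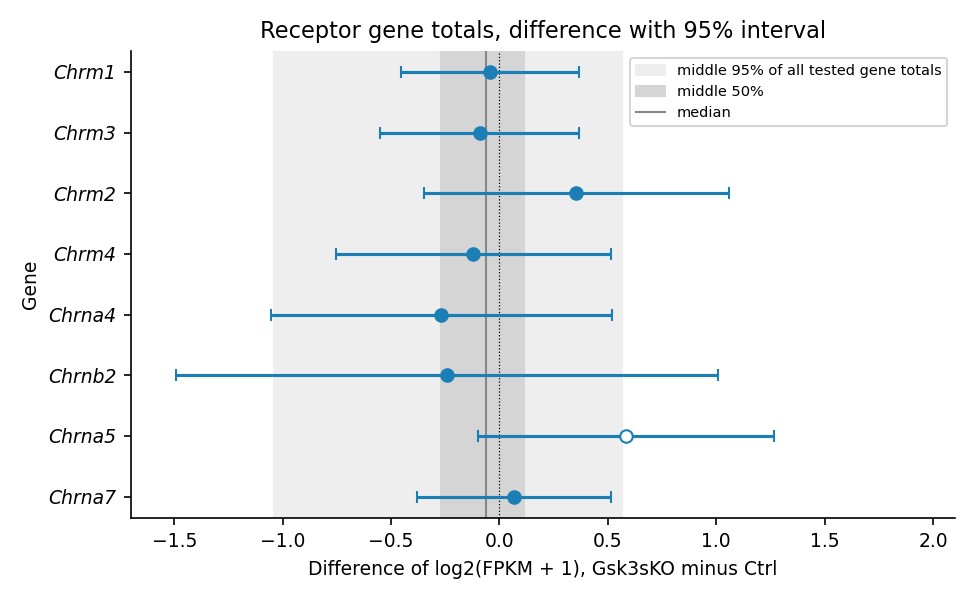
Difference of log2(FPKM + 1), Gsk3sKO minus Ctrl, for each receptor gene total (points) with its 95% interval (bars), in order of role. The open point is Chrna5 from a fit without the filter, and the shading marks the middle 50% and 95% of all tested gene totals around their median of −0.06. Each interval includes 0, with the widest for Chrnb2 (−1.49 to 1.01).

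Among the receptor genes the libraries at the ends of the range were often the same ones. How often each library was lowest or highest over all gene totals is not given here. Ctrl replicate 1 was the lowest of the 6 libraries for Chrm1, Chrm2, Chrna4 and Chrna5, and Gsk3sKO replicate 3 was the lowest for Chrm3, Chrm4, Chrnb2 and Chrna7. Ctrl replicate 3 was the highest for 4 genes (Chrm1, Chrm4, Chrna4 and Chrnb2). Drd2 was also lowest in Ctrl replicate 1 and highest in Ctrl replicate 3, and its part in these levels was not tested. Without Gsk3sKO replicate 3 the log2 fold changes of Chrm1, Chrm3, Chrm4 and Chrnb2 were positive, at 0.03, 0.11, 0.11 and 0.37, and none of the 4 passed the test.

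Transcripts gave the same count of calls. Of the 20 transcripts listed for the 8 genes, 3 were at 0 in all libraries, 8 were above 0 with a mean under 1 FPKM, and 9 were tested. Of these 9, 0 had an unadjusted limma p under 0.05, beside 1200 of 21584 transcripts or 5.56% overall. The groups did not overlap in 11.2% of all tested transcripts and overlapped in each of these 9. All 9 are annotated as protein coding, and their adjusted p-values (limma, Benjamini-Hochberg over all transcripts) ran from 0.890 to 0.999.

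The muscarinic genes kept 1 leading transcript in every library. Chrm1-201 held 75.5% to 89.7% of the Chrm1 FPKM and Chrm1-202, which has a longer 3-exon structure and the same coding length, held 9.98% to 24.4%. Chrm3-201, a single-exon model that ends with the coding sequence, held 71.3% to 81.7% of the Chrm3 FPKM and the 5-exon Chrm3-202 the rest. Chrm2 came almost wholly from Chrm2-202, at no less than 98.8%, and Chrm4 from its single listed transcript.

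The subunits of the high-affinity nicotinic receptor shifted between transcripts from library to library. Chrna4-201, with 6 exons, held 100% of the Chrna4 FPKM in the 3 Ctrl libraries and 97.4%, 32.2% and 83.4% in Gsk3sKO. In Gsk3sKO replicate 2 the 519-base Chrna4-205 was listed at 3.85 FPKM, above the 1.83 FPKM of Chrna4-201, and it was listed at 0 in 4 of the other 5 libraries. Chrna4-201 itself was at 4.04, 9.48 and 9.60 FPKM across Ctrl and 7.88, 1.83 and 3.57 FPKM across Gsk3sKO (log2 fold change −0.76, SE 0.52, limma adjusted p = 0.890). The groups overlapped because Ctrl replicate 1 lay between Gsk3sKO replicates 1 and 3. Chrnb2-201 was listed at 0 in Ctrl replicate 1, where the noncoding Chrnb2-202 held 76.6% of the Chrnb2 FPKM, and it held 91.5% to 100% in the other 5 libraries. The direction of Chrnb2 turned with the transcripts summed, from a log2 fold change of −0.24 for the total to 0.42 (SE 0.89) for Chrnb2-201. How reads are divided between overlapping transcripts is an estimate, so these shifts carry an error that the FPKM values do not show.

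**Figure D3:**
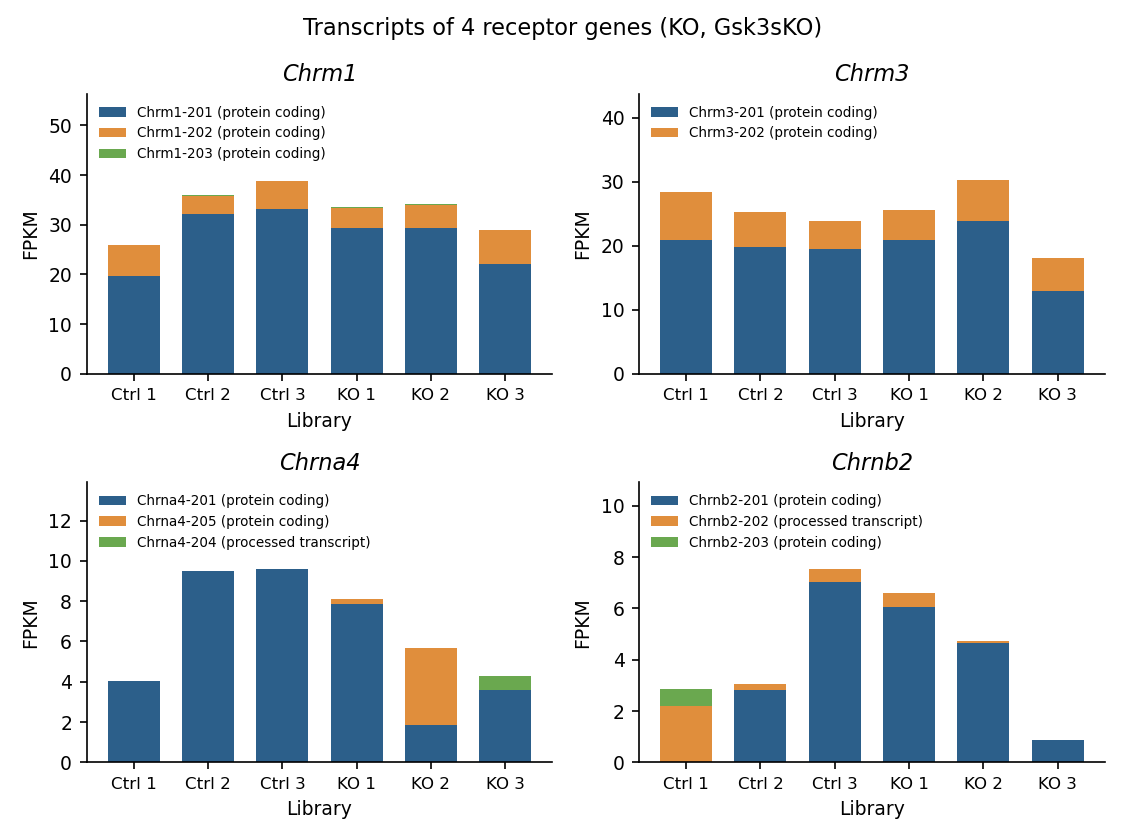
FPKM of each listed transcript above 0 of Chrm1, Chrm3, Chrna4 and Chrnb2, stacked for each of the 6 libraries (KO, Gsk3sKO). The leading transcripts of Chrm1 and Chrm3 are the same in each library, while Chrna4-205 appears at 3.85 FPKM in Gsk3sKO replicate 2 and Chrnb2-201 is absent from the bar of Ctrl replicate 1.

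Ratios within a library do not depend on how libraries were scaled to each other, and 5 of them were tested over the 6 libraries. Within the muscarinic pool the shares of both groups covered overlapping ranges. Chrm1 made up 40.6%, 48.9% and 49.9% of the summed muscarinic FPKM in Ctrl and 45.5%, 44.7% and 48.2% in Gsk3sKO (exact permutation p = 0.9). The Gi-coupled share was 15.05%, 16.8% and 19.4% in Ctrl and 19.6%, 15.7% and 21.8% in Gsk3sKO (exact permutation p = 0.4). The summed muscarinic FPKM was 71.8 ± 7.12 in Ctrl and 70.0 ± 8.62 in Gsk3sKO (SD, n = 3 each), 3.22 ± 0.54 and 3.30 ± 0.70 times the summed nicotinic FPKM.

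In the nicotinic pool the share of Chrna7 was 57.3%, 45.6% and 36.1% in Ctrl and 40.3%, 52.1% and 59.98% in Gsk3sKO (exact permutation p = 0.7). The log2 ratio of Chrna4 to Chrnb2 was 0.51, 1.63 and 0.35 in Ctrl and 0.29, 0.26 and 2.32 in Gsk3sKO (exact permutation p = 1.0). Neither separated the groups, and the gene total of Chrna4 exceeded that of Chrnb2 in every library. By leading transcripts this order did not hold in Gsk3sKO replicate 2, where Chrna4-201 was at 1.83 FPKM and Chrnb2-201 at 4.65 FPKM.

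The ratio of the accessory α5 subunit to α4 was the 1 ratio of the 5 in which the groups did not overlap. Among single gene totals the groups did not overlap in 12% of those tested. That is an unlike measure, as Chrna5 was under the filter, and no such share over ratios is given here. The 5 ratios were chosen with earlier results of these data known. The log2 ratio of Chrna5 to Chrna4 was −4.18, −3.37 and −5.10 in Ctrl and −2.62, −1.93 and −2.52 in Gsk3sKO. All 3 Gsk3sKO libraries were above all 3 Ctrl libraries, by 1.86 on average, or a 3.63-fold higher ratio. The exact permutation p of 0.1 is the smallest that 3 against 3 libraries can give, and it is 0.5 after Benjamini-Hochberg adjustment over the 5 ratios. Without each library in turn the difference was 1.42 to 2.29, and it was 2.51 with the most abundant transcript of each gene in place of the totals. The value of 2.51 depends on the estimated division of reads, as Chrna4-201 held 32.2% of the Chrna4 FPKM in Gsk3sKO replicate 2. The difference in the ratio combines a higher mean of Chrna5 with a lower mean of Chrna4, neither of which separated the groups on its own. The Ctrl end rests on the 12.4 to 55.1 reads estimated for Chrna5. As a share of the nicotinic FPKM, a measure chosen after its values were seen, Chrna5 was 1.34%, 3.71% and 1.02% in Ctrl and 4.91%, 5.99% and 5.09% in Gsk3sKO.

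**Figure D4:**
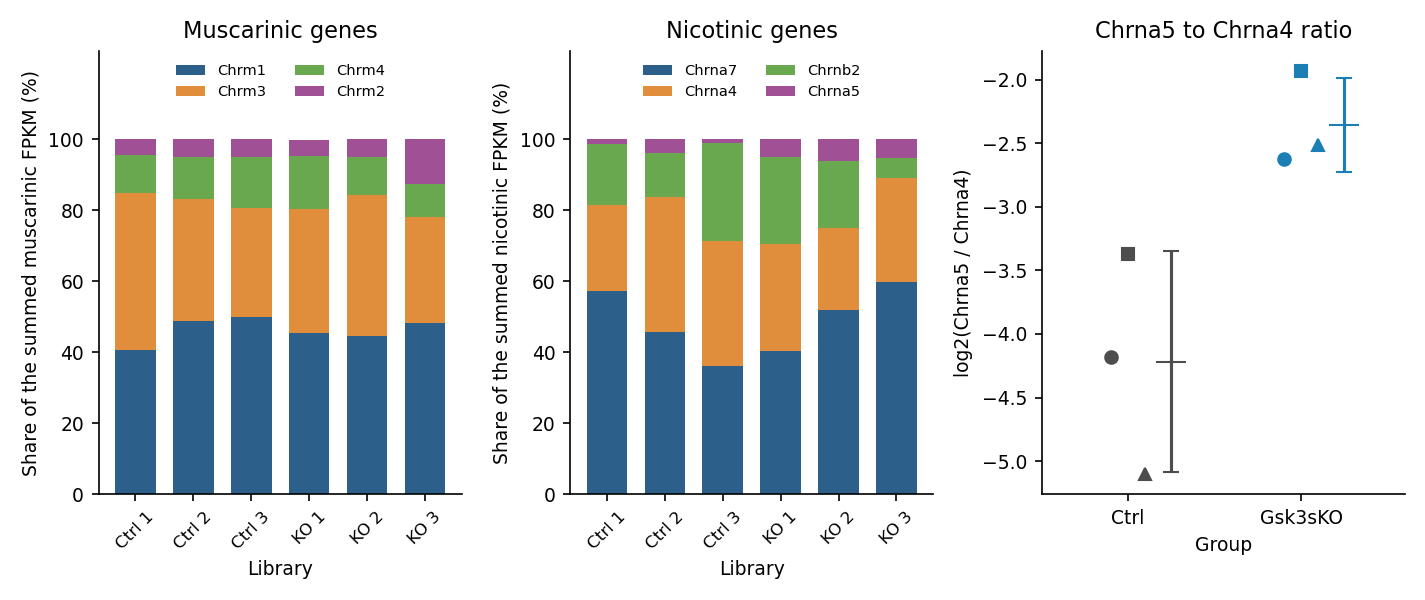
Left and middle, share of each gene in the summed muscarinic and nicotinic FPKM (percent) in each library (KO, Gsk3sKO). Right, log2 ratio of Chrna5 to Chrna4 in each library, with the mean and SD of each group (n = 3), which lies at −4.22 in Ctrl and −2.36 in Gsk3sKO with no overlap of the points.

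The other genes of the acetylcholine pathway were taken as 5 hand-written lists without the 8 receptor genes. Of 55 genes found, 34 were tested, 1 was called by the unadjusted limma p, 0 by the adjusted one, and in 7 of the 34 the groups did not overlap. These counts stand beside 6.56% and 12% of all gene totals. The remaining receptor genes were barely detected. Of 13 subunit or receptor genes, 7 were at 0 in all libraries and 0 passed the filter. The most abundant was Chrna2, at a mean of 0.629 FPKM, and Chrm5, the remaining Gq-coupled muscarinic receptor, was at 0.245 FPKM.

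The 1 gene called was Ache, which encodes acetylcholinesterase, the enzyme that breaks down acetylcholine. It was at 5.45, 8.46 and 7.13 FPKM in the Ctrl libraries, against 10.6, 8.52 and 12.3 FPKM in Gsk3sKO. All Gsk3sKO libraries were above all Ctrl libraries, with Ctrl replicate 2 and Gsk3sKO replicate 2 close to each other. The log2 fold change was 0.52 (SE 0.22, 95% interval 0.01 to 1.03, limma p = 0.0477, adjusted p = 0.755, exact permutation p = 0.1). It was positive in each of 15 alternatives, from 0.37 to 1.07, and had an unadjusted p under 0.05 in 8 of them. The call was lost in the other 7, among them those without Ctrl replicate 1 (log2 fold change 0.37), Ctrl replicate 3 (0.54), Gsk3sKO replicate 1 (0.51) or Gsk3sKO replicate 3 (0.41), and also without moderated variances and with the most abundant transcript alone. The genes of acetylcholine synthesis and transport were close to 0, with Chat, the synthesizing enzyme, at 0 to 0.476 FPKM and Slc5a7, the choline transporter, at 0 to 0.655 FPKM.

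Of the 8 tested chaperones and Ly6 modulators of nicotinic receptors, 0 were called, with 3 higher and 5 lower means in Gsk3sKO and a median log2 fold change of −0.08. Ly6h, a Ly6 protein that restrains α7 receptors at the surface, was the most abundant at a mean of 67.4 FPKM (log2 fold change −0.27, SE 0.15, limma adjusted p = 0.792). Lypd6, another Ly6 protein, had the largest difference, at 0.66 (SE 0.42, limma adjusted p = 0.816). Lypd6 levels of 3.61, 2.504 and 8.84 FPKM in Ctrl and 5.86, 5.86 and 12.3 FPKM in Gsk3sKO overlapped. Lynx1 was the 1 gene of the 8 in which the groups did not overlap, beside 12% of all gene totals. It was at 32.8, 39.0 and 33.4 FPKM in Ctrl and 39.1, 54.4 and 40.9 FPKM in Gsk3sKO (log2 fold change 0.33, SE 0.17, limma adjusted p = 0.781).

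Downstream of the Gq-coupled receptors 0 of 12 tested genes were called, with a median log2 fold change of 0.10, and downstream of the Gi-coupled receptors 0 of 13, with a median of −0.11. Over all single gene totals the median was −0.06 and the middle 50% ran from −0.27 to 0.12. A median of 12 or 13 genes varies less than single genes, so this range cannot judge the 2 medians. Plcb1, the phospholipase C that Gq activates, had the largest difference in the Gq list, with 77.7, 81.6 and 94.9 FPKM in Ctrl and 175, 91.8 and 97.3 FPKM in Gsk3sKO. Gsk3sKO replicate 1 alone was far above the rest, and the log2 fold change of 0.45 had a limma adjusted p of 0.792. The most abundant gene of the Gq list was Prkcb, a protein kinase C, at a mean of 263.7 FPKM (log2 fold change 0.14, SE 0.15). In the Gi list Gnai3, a Gi α subunit, had the largest difference at −0.45 (SE 0.30, limma adjusted p = 0.824), and Gnao1, the Go α subunit, was the most abundant at 149.8 FPKM with a log2 fold change of −0.07 (SE 0.12).

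**Figure D5:**
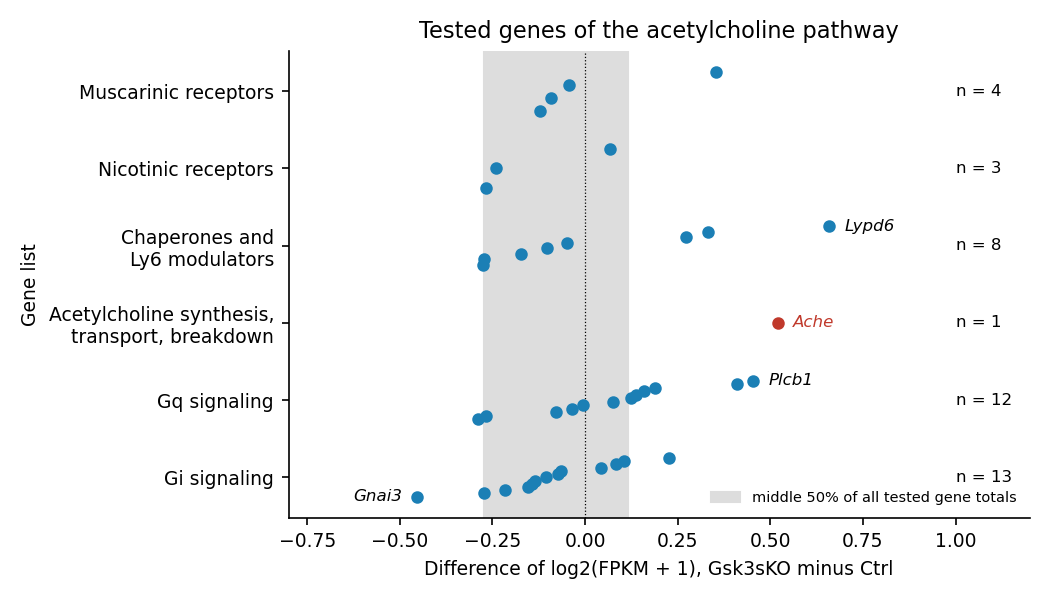
Difference of log2(FPKM + 1), Gsk3sKO minus Ctrl, for each tested gene of the receptor and pathway lists (n, genes tested), with the middle 50% of all tested gene totals shaded. Ache (red, 0.52) is the single gene with an unadjusted limma p under 0.05, and the gene with the largest difference is named in 3 of the other lists.

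Marker sets of neuron classes and of other cells were detected as sums in all libraries, although single markers were at 0 in some. The D2 neurons are themselves cortical neurons, so the neuronal sets are not only markers of other cells. The summed FPKM of 8 excitatory markers was 918 to 1059 in Ctrl and 884 to 1084 in Gsk3sKO, that of 7 inhibitory markers 1000 to 1327 and 942 to 1032, and that of 6 striatal projection neuron markers 58.9 to 114 and 71.7 to 96.9. These ranges overlapped between the groups. Of 6 oligodendrocyte markers 3 were called lower in Gsk3sKO (Mog, Mag and Cnp), and their summed level was 118 to 183 FPKM in Ctrl and 128 to 165 FPKM in Gsk3sKO, with Mog listed at 0 in 2 Gsk3sKO libraries. Of 6 microglial markers C1qa was called lower (summed level 14.2 to 25.3 and 12.4 to 15.4 FPKM), and of the excitatory markers Tbr1 was called lower, all at an unadjusted limma p under 0.05 and with adjusted p-values of 0.607 to 0.726. The 3 cholinergic markers summed to 0.217 to 0.386 FPKM in Ctrl and 0.224 to 1.13 FPKM in Gsk3sKO. Astrocyte markers (145 to 177 and 144 to 192 FPKM) and endothelial markers (10.7 to 38.4 and 16.9 to 35.1 FPKM) held no called gene. The part of other cells in the receptor levels was not tested.

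The gene totals most alike to the leading receptor of each family were named by Pearson r of log2(FPKM + 1) over the 6 libraries, as a description of points that share libraries. For Chrm1 these were Usp38 (r = 0.994), E2f1 (r = 0.988) and Dcaf15 (r = 0.985), and 282 of 12873 other gene totals had an r over 0.9. For Chrna7 they were Mkx (r = 0.992), Exosc10 (r = 0.992) and Ctsz (r = 0.985), and 117 had an r over 0.9.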

How the data were processed

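RNA from RiboTag immunoprecipitation of mPFC was sequenced after stranded total RNA library preparation in 3 Ctrl and 3 Gsk3sKO libraries, and groups and replicate numbers were taken from the labels. Values are FPKM per transcript, as deposited by the authors, whose processing notes name HISAT2 2.1.0, SAMtools 1.9, StringTie 1.3.4d and the GRCm38 build. No settings of these tools were stated in the text read. FPKM holds no read counts, so no count model was run. The authors also deposited a linear fold, a p-value and a q-value of their own comparison, none of which was used. All 6 columns of values were mapped to a library, and 0 were left out.

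FPKM was summed by gene ID. The groups were compared by limma 3.58.1 (lmFit, eBayes with trend, run in R 4.3.3) on log2(FPKM + 1) for features with a mean of at least 1 FPKM over the 6 libraries, without covariates. Tests were 2-sided, a feature was called at an unadjusted p under 0.05, and adjusted p-values follow Benjamini and Hochberg over all features tested. The pseudocount of 1 makes differences of low genes look smaller than they are. Single values and ratios were compared with exact permutation tests, which cannot go below p = 0.1 with 3 libraries against 3. The fit was tested on simulated data. Alternatives changed the pseudocount, the filter, the scaling, the moderation of variances, the replicate block, the transcripts summed and the libraries used.

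The receptor genes, the pathway and marker lists and the tests were chosen with earlier results of these data known. Named are all receptor genes, their transcripts with a mean of at least 1 FPKM, and of each pathway list the called genes, else the gene with the largest difference, with the most abundant one. Beyond this rule Chrm5, Slc5a7, Lynx1, Chrna4-205, Chrnb2-202 and the called markers were named after their values were seen. Tmem35a and Grk2 were matched by gene ID to older symbols. Transcripts and coding sequences were read from GENCODE M21, which held 114237 of the 115220 transcripts. Other software was Python 3.11.15 with Biopython 1.88, scipy 1.17.1, pandas 2.3.3, numpy 2.4.6 and matplotlib 3.10.9.

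To estimate depth, transcripts over 800 bases with low FPKM were searched for the step that 1 read makes, and read numbers derived from it are approximate and cover counting only.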

Additional observations from a re-analysis of the deposited data

How the results depend on the processing

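Of 105 limma tests of a receptor gene under an alternative, 0 had an unadjusted p under 0.05, and the counts of called receptor genes and transcripts were 0 in each alternative. Scaling moved directions. Setting the FPKM of every library to 1 common sum (TPM) moved the median log2 fold change of all gene totals from −0.06 to 0.26 and the called gene totals from 175 higher and 669 lower to 889 and 289, while scaling by median ratios gave 254 and 549. Under TPM scaling Chrm1 was at 0.32, Chrm3 at 0.26, Chrm4 at 0.21, Chrna4 at 0.049 and Chrna5 at 1.08, where its groups did not overlap, and relative to that median Chrm1 was at 0.06, Chrm3 at 0.01, Chrm4 at −0.04 and Chrna4 at −0.21. Under median-ratio scaling Chrm1 was at 0.0021. Chrnb2 was at 0.42 with its most abundant transcript and at 0.18 with protein-coding transcripts alone, an alternative chosen after seeing the data, which also put the difference in the Chrna4 to Chrnb2 log2 ratio (Gsk3sKO minus Ctrl) at −0.68 in place of 0.13. Chrna5 differed by 1.31 with a pseudocount of 0.1, and it stayed under the filter, without a value, with a filter at 5 FPKM, median-ratio scaling, the replicate block or unmoderated variances. The count of called transcripts was 1200, against 590 with a filter at 5 FPKM and 1917 with none, with fewer and more transcripts tested. TPM scaling divides each library by its summed FPKM, so its shift follows from these sums. Why the sums differ was not tested, nor was the cause of the remaining shifts.

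Without each library in turn, 574 to 1175 gene totals and 894 to 1733 transcripts were called. The log2 fold changes ran from −0.21 to 0.069 for Chrm1, −0.25 to 0.11 for Chrm3, 0.05 to 0.53 for Chrm2, −0.33 to 0.11 for Chrm4, −0.62 to −0.08 for Chrna4, −0.65 to 0.37 for Chrnb2, 0.46 to 0.79 for Chrna5 and −0.058 to 0.20 for Chrna7. The difference in share ran from −3.27 to 1.39 percentage points for Chrm1, 0.588 to 3.65 for the Gi-coupled genes and −0.686 to 9.92 for Chrna7. The log2 ratio difference ran from −0.55 to 0.53 for Chrna4 to Chrnb2 and 1.42 to 2.29 for Chrna5 to Chrna4.

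Same-numbered libraries did not deviate together (correlations −0.03, −0.01 and −0.08), and libraries with different numbers had correlations of −0.03 to 0.05. The labels do not say whether the numbers pair the samples, and these correlations cannot settle it. With the replicate number as a block, 821 gene totals and 1103 transcripts were called, and 0 receptor genes. Ache was at 0.52 without a call.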
